A study of Mus musculus with 10 samples.

Results

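RNA levels of 10 mouse genes of the major histocompatibility complex (MHC) class I pathway were compared between naive B cells and the antibody-secreting plasma cells that arise from them. The genes were the light chain B2m, the heavy chains H2-K1 and H2-D1, the peptide transporter genes Tap1 and Tap2, tapasin (Tapbp), the immunoproteasome subunits Psmb8, Psmb9 and Psmb10, and the aminopeptidase Erap1. They were taken by symbol, which gave 31 of the 61112 transcripts and 10 of the 26434 gene symbols in the table. Each cell type had 1 RNA-seq library of wild-type C57BL/6 mice, of 37.0 M (naive) and 43.5 M (plasma) estimated counts, so every difference below lacks a replicate check. The naive B cells were CD23+ IgD+ cells sorted from spleen. The labels of the plasma cells conflict: one names plasma cells activated in vitro and another a bone marrow sort of CD138+ cells that lacked B220, IgD, CD4, CD8, Gr1 and Ter119. Neither the number of animals in each library nor their age is given in the labels.

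Most defining genes of both cell types followed the labels, but the plasma sort marker did not. All 6 measured naive B cell markers were called lower in the plasma library by the rule given below, against 22% of all genes tested. Ms4a1, which encodes CD20, was at 1323 and 214 TPM (a transcript level corrected for transcript length and library size). Of 7 plasma cell markers with at least 5 TPM in 1 library, 5 were called higher, against 16% of all genes tested. Among them Igj, the immunoglobulin joining chain, was at 510 and 3027 TPM. Sdc1, the gene of CD138, had 11.1 naive and 5.38 plasma TPM and Slamf7 55.5 and 53.2 TPM, and neither was called. Tnfrsf17 stayed under 5 TPM in both libraries, at 2.24 and 1.68 TPM. The naive library also held transcripts of genes listed as markers of other cells. Summed T and NK cell markers were at 112 TPM against 5.16 TPM in plasma cells, where 4 of 11 were at 0. Lck led them at 46.0 and 2.49 TPM, followed by Trbc2 at 18.0 and 0 TPM. Cd3d, Cd3e and Cd3g were at 6.21, 2.65 and 5.04 naive TPM. Neutrophil and monocyte markers were at 145 against 2.25 TPM, where 1 of 9 was at 0 (led by Lyz2 at 55.2 and 0.240 TPM). Erythroid and platelet markers were at 82.2 against 2.29 TPM, where 4 of 6 were at 0 (led by Hba-a2 at 33.1 and 0 TPM). Summed dendritic cell markers were at 10.5 and 31.6 TPM, of which Flt3 made 2.50 and 30.2 TPM, and 1 of 6 (Clec9a) was at 0 in plasma cells. The part of other cells in the class I values was not tested. In bulk RNA, fewer cells of a type and less RNA per cell cannot be told apart.

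Class I molecules show peptides from inside the cell to CD8 T cells. Proteasomes cut proteins into peptides, and the immunoproteasome carries Psmb8, Psmb9 and Psmb10 in the places of the constitutive catalytic subunits Psmb5, Psmb6 and Psmb7. The transporter of Tap1 and Tap2 moves the peptides into the endoplasmic reticulum, where Erap1 trims them and tapasin holds the transporter next to the empty heavy chain. The heavy chain reaches the surface as a complex with B2m and a bound peptide. Most of these genes lie in the MHC on chromosome 17, and many respond to interferon and to the transactivator Nlrc5, which acts at a promoter module of X and Y boxes.

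The promoters of B2m, H2-K1 and H2-D1 shared a spacing of 2 short motifs that was rare among all promoters. The RefSeq table (GRCm38.p6) gives windows of 300 bases, from 250 before to 50 after the start, for 9 of the 10 genes. The windows of B2m, H2-K1, H2-D1, Tap1 and Psmb10 are printed as examples. Capitals mark the ISRE core (TTTCNNTTT), the NF-kB consensus, the X2 core (TGACG) and the Y box (ATTGG), each searched on both strands. The windows lie at chr2:122147437-122147736 on the plus strand for B2m, chr17:34000298-34000597 on the minus strand for H2-K1 and chr17:35262844-35263143 on the plus strand for H2-D1. Those of Tap1 (chr17:34187306-34187605) and Psmb10 (chr8:105938343-105938642) are on the plus and the minus strand. The sequences run 5′ to 3′ in the direction of each gene.
B2m: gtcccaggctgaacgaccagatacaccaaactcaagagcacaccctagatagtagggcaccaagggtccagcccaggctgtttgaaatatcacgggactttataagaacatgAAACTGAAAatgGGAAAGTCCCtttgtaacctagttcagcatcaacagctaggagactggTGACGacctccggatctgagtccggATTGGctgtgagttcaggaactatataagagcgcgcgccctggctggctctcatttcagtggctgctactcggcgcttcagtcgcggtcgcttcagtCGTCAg
H2-K1: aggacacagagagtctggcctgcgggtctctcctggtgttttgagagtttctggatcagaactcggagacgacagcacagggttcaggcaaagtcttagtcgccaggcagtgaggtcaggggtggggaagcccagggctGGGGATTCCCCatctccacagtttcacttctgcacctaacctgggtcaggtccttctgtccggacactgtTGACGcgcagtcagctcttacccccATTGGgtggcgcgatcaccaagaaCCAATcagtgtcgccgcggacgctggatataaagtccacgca
H2-D1: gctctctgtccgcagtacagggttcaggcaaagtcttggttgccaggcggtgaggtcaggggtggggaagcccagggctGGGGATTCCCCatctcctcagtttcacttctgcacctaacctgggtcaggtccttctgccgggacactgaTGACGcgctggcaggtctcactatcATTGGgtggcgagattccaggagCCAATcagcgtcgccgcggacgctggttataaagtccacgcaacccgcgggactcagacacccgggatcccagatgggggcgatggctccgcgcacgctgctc
Tap1: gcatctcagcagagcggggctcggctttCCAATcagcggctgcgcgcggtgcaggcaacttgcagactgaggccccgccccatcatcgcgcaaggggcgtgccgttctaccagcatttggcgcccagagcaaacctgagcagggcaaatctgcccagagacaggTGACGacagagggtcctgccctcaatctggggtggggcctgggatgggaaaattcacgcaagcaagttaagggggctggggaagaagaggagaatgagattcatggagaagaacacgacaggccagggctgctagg
Psmb10: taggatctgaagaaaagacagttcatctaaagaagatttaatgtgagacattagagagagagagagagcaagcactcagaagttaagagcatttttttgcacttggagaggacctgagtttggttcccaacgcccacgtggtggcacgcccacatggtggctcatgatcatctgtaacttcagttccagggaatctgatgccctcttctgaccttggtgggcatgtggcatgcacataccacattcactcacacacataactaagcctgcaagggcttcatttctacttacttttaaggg

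In the windows of B2m, H2-K1 and H2-D1 an X2 core was followed by a Y box after 20 bases. The X2 core began at base -78 (the start base is 0) in B2m, at -41 in H2-K1 and at -101 in H2-D1, and the Y box at -53, -16 and -76. H2-K1 has another listed start with the same pair. This pair, with that spacing and on either strand, was in 31 of 32851 windows (0.0944%), which belonged to 27 of 27025 genes. H2-M3 was the only gene with it among 16 of the other listed class I genes that had a window. None of 9 genes of the MHC class II list with a window had it. The search took only these letters at this spacing, so other forms of X and Y boxes were not looked for. The spacing was looked for after the members' windows had been read, so its share is a description.

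An NF-kB consensus stood upstream of that pair in the same 3 genes, beginning at -126 in B2m, -111 in H2-K1 and -171 in H2-D1, and was in 8.46% of all windows. In both heavy chain genes it was matched at 2 neighbouring positions that overlap. The ISRE core was in the windows of B2m and Erap1, against 10.6% of all windows. The GAS motif (TTCNNNGAA) was in that of Psmb8, against 8.30%. A Y box of any spacing was in 6 of 9 members (37.4% of all windows), an X2 core in 5 of 9 (20.8%) and a GC box (GGGCGG) in 4 of 9 (35.7%). The Psmb10 window had no match to any of the 6 motifs. Lack of a match, in this or any other window, says only that these exact letters are not in it. Tap1 and Psmb9 face away from each other with 225 bases between their RefSeq starts. Their windows share 275 bases, so they hold the same X2 core and Y box. The Tapbp window had no X2 core and no NF-kB match, while the centred ratio of Tapbp given below (1.27) exceeded that of H2-K1 (1.10). Whether matches go with levels or ratios was not tested. A match is a description of the sequence and shows no bound factor.

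**Figure D1:**
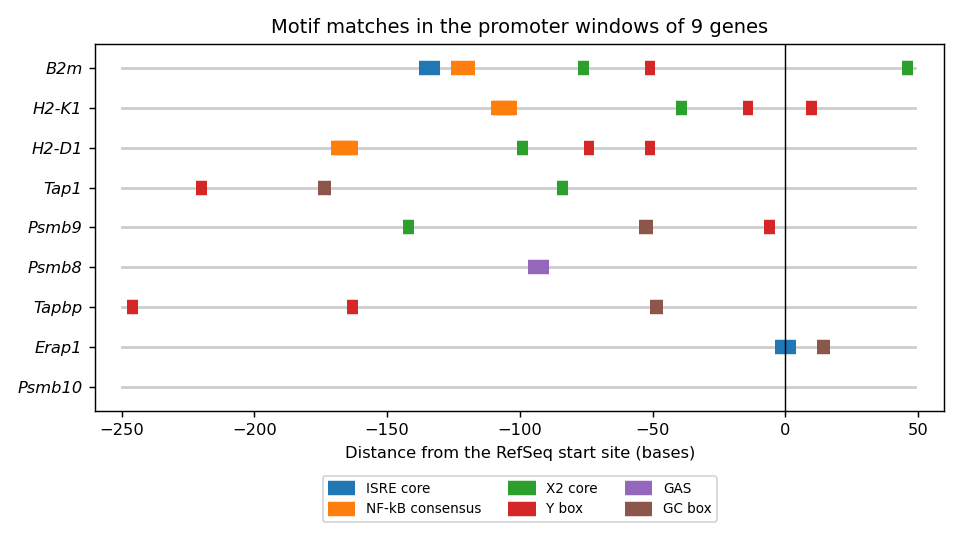
Matches of 6 motifs in the promoter windows of 9 genes, by distance in bases from the RefSeq start site (the vertical line); each block spans 1 match on either strand, and overlapping matches merge. B2m, H2-K1 and H2-D1 show an NF-kB consensus, an X2 core and a Y box in the same order, and the Psmb10 line is empty.

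B2m was the most abundant of the 10 genes in both libraries, and the heavy chains came next. B2m had 2862 naive and 4067 plasma TPM, and its rank among 10041 genes outside the immunoglobulin and mitochondrial genes went from 32 to 8. H2-K1 was at 2010 and 2168 TPM, and H2-D1 at 2372 and 2020 TPM. The heavy chains thus changed order between the libraries, with H2-D1 above H2-K1 in naive B cells and below it in plasma cells. That order rests on incomplete H2-D1 transcripts, as described with the transcripts below.

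The loading and peptide-making genes were far less abundant. Tap1 was at 297 and 215 TPM, Tap2 at 114 and 63.7 TPM, and Tapbp at 187 and 228 TPM. The immunoproteasome subunits Psmb8, Psmb9 and Psmb10 were at 348, 233 and 99.4 TPM in naive B cells and at 212, 222 and 29.4 TPM in plasma cells. Erap1 had the lowest level in both, with 49.7 and 27.3 TPM. In naive B cells Psmb8 was the fourth gene and Tapbp the seventh. In plasma cells Tapbp, Psmb9, Tap1 and Psmb8 lay together between 212 and 228 TPM, and no spread between replicates is known by which to order them. Summed over the 10 genes, the level was 8573 naive and 9252 plasma TPM.

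**Figure D2:**
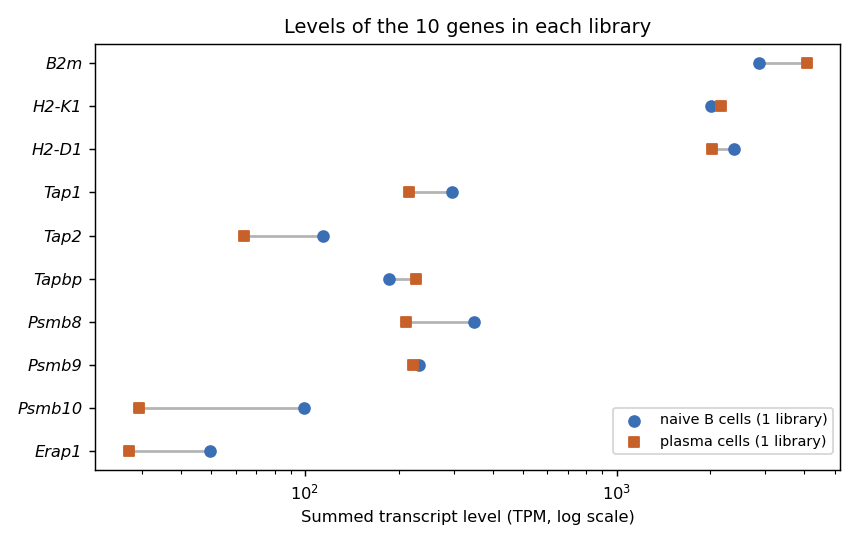
Level of each of the 10 genes in TPM (log axis) in the naive B cell library (circles) and the plasma cell library (squares), 1 library each. H2-K1 and Psmb9 have nearly the same level in both, B2m lies highest at 2862 and 4067 TPM, and Psmb10 has the widest gap, from 99.4 to 29.4 TPM.

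How these levels compare between the cell types depends on the scale. TPM is a share of all transcripts, and immunoglobulin genes took 5.08% (naive) and 35.1% (plasma) of it, while mitochondrial genes took 6.52% and 1.66%. With 1 added to each TPM, ratios are the log2 of plasma over naive, minus their median over the 7488 genes that reached 5 TPM in each library. Centring removed a shift of -0.99, so a gene with equal TPM in both libraries has a centred ratio of 0.99. Genes with 5 TPM or more in 1 library were called higher from a centred ratio of 1 up and lower from -1 down. By this rule 16% of 10191 genes were called higher in plasma cells and 22% lower, with a median of -0.23. All 10 class I genes passed that minimum in both libraries.

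Of the 10 genes, 3 were called higher, none was called lower and 7 lay between, against the 16% and 22% of all genes, with a median centred ratio of 0.64. Those called were B2m at 1.49, Tapbp at 1.27 and H2-K1 at 1.10. Psmb9 was at 0.92, H2-D1 at 0.76, Tap1 at 0.53, Psmb8 at 0.27, Tap2 at 0.15 and Erap1 at 0.15. Psmb10 was the only one below 0, at -0.74. Among all genes tested these ratios ran from the percentile 30.7 (Psmb10) to 89.5 (B2m). Without centring 3 of the 10 were above 0, none was called higher and Psmb10 was called lower (-1.72). On that scale 5870 of the 10191 genes tested were called lower and 790 higher. Estimated counts in place of TPM, centred on their own median, put H2-D1 at 1.06 and Psmb9 at 1.14, past the call. Counts with TMM factors gave 5 of the 10 called higher, against 2240 of all 10191 genes tested. B2m, H2-K1 and Tapbp were above 0 and Psmb10 below 0 under each of 11 alternatives, while the direction of the other 6 depended on the scale.

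Counting error was small beside these differences of scale. The centred log2 ratio of estimated counts had an exact 95% interval of 1.55 to 1.58 for B2m, of 1.20 to 1.23 for H2-K1 and of -0.79 to -0.60 for Psmb10, the gene with the fewest counts in plasma cells (1424). Such intervals cover counting error only, not animals, cultures or library preparation.

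**Figure D3:**
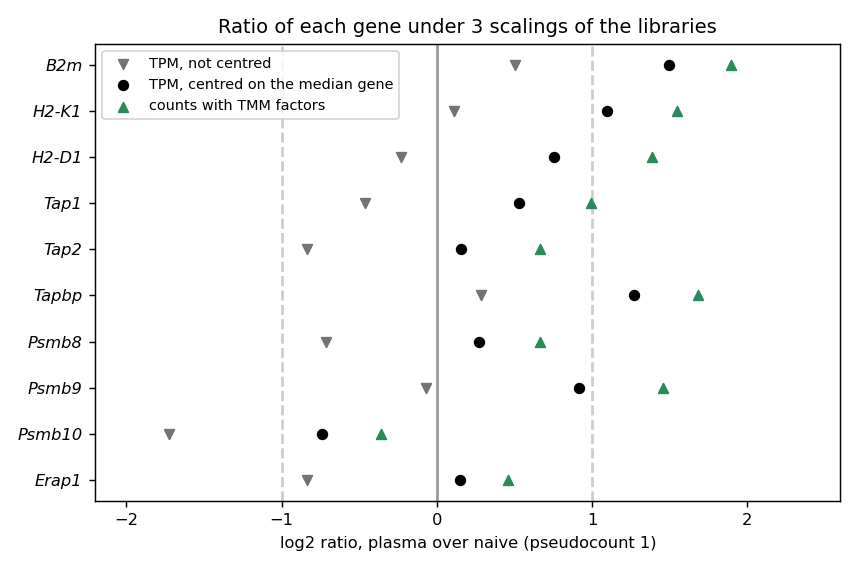
log2 ratio of plasma over naive for each gene, with TPM as deposited (grey triangles), TPM centred on the median gene (black circles) and counts scaled by TMM factors (green triangles); dashed lines mark the call at 1 and -1. The genes keep 1 order on all 3 scales, with B2m highest and Psmb10 lowest, while the zero line moves past 6 of the 10 genes.

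Ratios of genes within a library do not depend on that scale, and they set the immunoproteasome subunits apart from each other. Psmb8, the chymotrypsin-like subunit, had 4.22 (naive) and 1.94 (plasma) times the level of its constitutive counterpart Psmb5, a log2 difference of -1.12 (counting interval -1.22 to -1.02). Psmb10 over Psmb7, the trypsin-like pair, went from 1.13 to 0.287, a difference of -1.99 (-2.11 to -1.87). Psmb9 over its constitutive counterpart Psmb6 was 1.86 (naive) and 1.84 (plasma), a difference of -0.02 (-0.12 to 0.08). It was 0.13 from estimated counts and 0.34 from complete transcripts, so the Psmb9 pair lacked the lower ratio of the other pairs in each of these settings.

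Both sides of the pairs differed between the libraries. Levels of Psmb5 were 82.6 and 109 TPM and of Psmb7 87.6 and 103 TPM, with centred ratios of 1.38 and 1.21, and Psmb6 was at 125 and 121 TPM with a centred ratio of 0.93. Psmb5 and Psmb7 thus had a higher level in plasma cells on the TPM scale, where Psmb8 and Psmb10 had a lower one. Summed, the 3 immunoproteasome subunits had 2.30 (naive) and 1.39 (plasma) times the level of the 3 constitutive ones. Among the inducible subunits, the ratio of Psmb10 to Psmb9 went from 0.427 to 0.133. In the annotation used here 54.1% of the 50-base windows of Psmb5 also occur in another gene, mostly the copy Gm3375. That symbol has no deposited level, so the level of Psmb5 may hold reads of the copy. It could lack reads only if the copy is listed under another symbol.

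B2m was higher relative to its heavy chains in plasma cells. H2-K1 and H2-D1 together went from 1.53 to 1.03 times B2m, a log2 difference of -0.57 (counting interval -0.59 to -0.55). It was -0.41 over complete transcripts and -0.42 from estimated counts, both outside that interval. For H2-K1 alone the ratio to B2m went from 0.702 to 0.533 and for H2-D1 from 0.829 to 0.497. The log2 difference for H2-D1 was -0.74 over all transcripts and -0.42 over complete ones. With all 26 genes of the H2-K, H2-D, H2-Q, H2-T and H2-M families as heavy chains the ratio went from 2.65 to 1.46, a difference of -0.86. The ratio of Tap1 to Tap2, whose products form 1 transporter, went from 2.59 to 3.38.

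H2-K1 and H2-D1 took a larger share of class I transcripts in plasma cells, and the Qa genes of the H2-Q family a smaller one. H2-K1 and H2-D1 made 57.8% (naive) and 70.6% (plasma) of the TPM of those 26 genes. The 6 H2-Q genes made 29.8% and 18.2%, or 2258 and 1081 TPM. Within them H2-Q6 went from 900 to 329 TPM and H2-Q4 from 472 to 170 TPM, while H2-Q7 was at 310 and 433 TPM, with a centred ratio of 1.47. H2-T23, which encodes the Qa-1 antigen, kept its share at 6.48% and 6.76%. H2-Q genes are near copies of each other, so how reads were split among them is uncertain. In the annotation used here 9.63% of the 50-base windows of H2-K1 and 12.8% of those of H2-D1 occur in other genes. None of those of B2m, Psmb9, Psmb10 or Erap1 do, apart from antisense windows, which are given with the transcripts below.

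**Figure D4:**
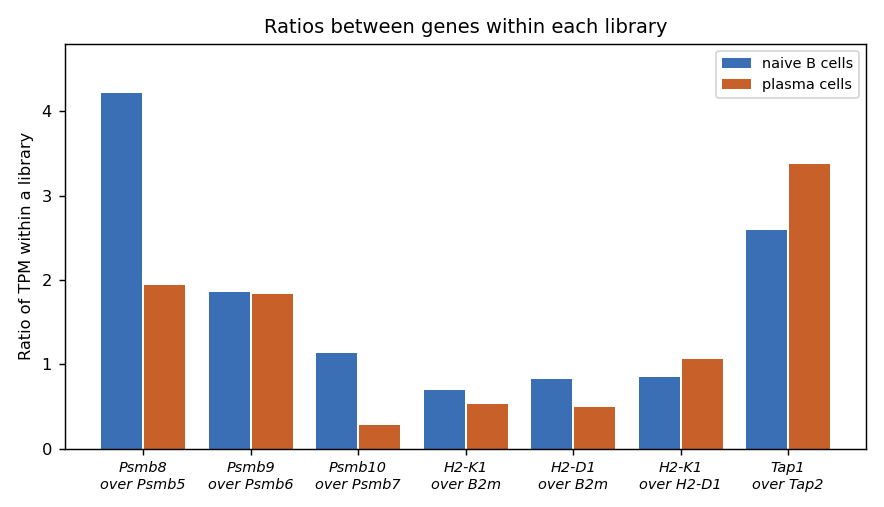
Ratio of TPM between 2 genes of the same library, for naive B cells and plasma cells (1 library each, bars from 0). Psmb8 over Psmb5 (4.22 and 1.94) and Psmb10 over Psmb7 (1.13 and 0.287) are lower in plasma cells, while the bars of Psmb9 over Psmb6 are level at 1.86 and 1.84.

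The transcripts behind several of these genes differed between the libraries. Of the 31 transcripts, 24 held at least 5% of their gene's TPM in 1 library. H2-K1-201, with a coding length of 834 bases against 1110 in H2-K1-001, went from 381 to 29.3 TPM, or 19.0% and 1.35% of the gene. H2-K1-001 was at 1275 and 1758 TPM, or 63.4% and 81.1%, and H2-K1-003 kept 17.4% and 17.1%. H2-K1-201 was thus scarce in plasma cells, while the sum over the gene was similar in TPM. How reads were split among overlapping transcripts of a gene is uncertain, and no interval given here covers that.

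Erap1 also differed by transcript. Erap1-202, with 2793 coding bases, was at 19.7 and 19.2 TPM and went from 39.7% to 70.1% of the gene. Erap1-201, with 2103 coding bases, went from 29.9 to 8.16 TPM. Erap1 overlaps Cast on the other strand, and 10.7% of its 50-base windows are antisense to that gene, which was at 83.8 and 22.4 TPM. Whether reads were counted by strand is not given, so reads of Erap1 and Cast in the overlap cannot be told apart. The same holds for Psmb8, with 11.8% of its windows antisense to other genes (mainly Gm20496, at 44.4 and 4.60 TPM), for Tap2 with 11.6% and for Tapbp with 21.1%. It also holds for Tap1 (3.33%) and Psmb9 (4.19%), which overlap each other by 212 bases on opposite strands in that annotation. In contrast, Psmb8-003 and Psmb8-001 held 54.8% and 45.2% of their gene in naive B cells and 55.0% and 45.0% in plasma cells, and Tapbp-001 held 50.9% and 50.6%.

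Incomplete transcripts, which lack an annotated end, weighed on H2-D1 and Psmb9. H2-D1-003 and H2-D1-004, of 391 and 406 bases, were at 802 and 199 TPM in naive B cells and 485 and 76.6 TPM in plasma cells. Incomplete transcripts thus held 42.2% and 27.8% of the H2-D1 TPM but 12.8% and 7.17% of its estimated counts. Over complete transcripts alone H2-D1 was at 1371 and 1458 TPM, below H2-K1 at 2006 and 2158 TPM in both libraries, with a centred ratio of 1.07 that passed the call. The ratio of H2-K1 to H2-D1 then differed by 0.02 on the log2 scale, against 0.34 over all transcripts.

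The table lists Psmb9 under 2 gene identifiers, and incomplete transcripts held 64.0% and 53.9% of its TPM. The Psmb9-006 entries of both identifiers had equal values, 52.7 and 49.1 TPM each. The complete Psmb9-001 was at 62.7 and 99.2 TPM under the identifier ENSMUSG00000024337 and at 21.2 and 2.91 TPM under ENSMUSG00000092299. Over complete transcripts Psmb9 was at 83.9 and 102 TPM, with a centred ratio of 1.26 that passed the call. B2m and Psmb10 have 1 transcript each in the table, so none of this bears on them.

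**Figure D5:**
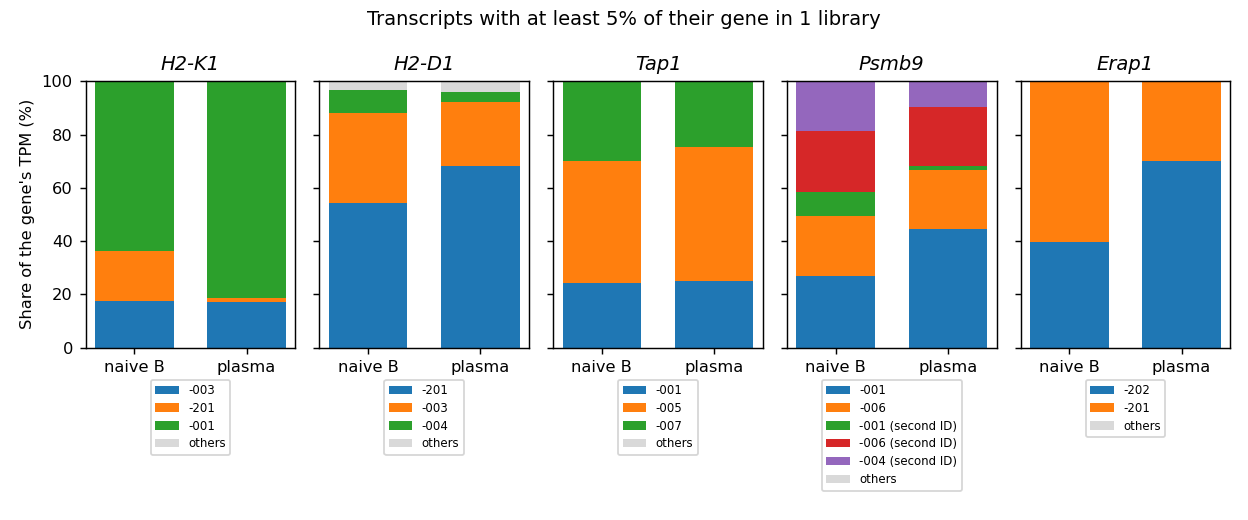
Share of the gene's TPM (%) held by each transcript of 5 genes in naive B cells and plasma cells; transcripts are named by the ending the table gives them, and grey holds those under 5% in both libraries. H2-K1-201 shrinks from 19.0% to 1.35% and Erap1-202 grows from 39.7% to 70.1%, while the 3 Tap1 transcripts keep similar shares.

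The other genes of the pathway were counted in lists by the same call, to be read beside the 16% and 22% of all genes. Chaperones that fold the heavy chain before loading were among those called higher. In the list of folding and peptide editing in the endoplasmic reticulum 6 of 9 were called higher and none lower, with a median of 1.48. Calreticulin (Calr), which stays with tapasin in the loading complex, was at 397 and 1017 TPM, with a centred ratio of 2.34. Pdia3, the oxidoreductase that pairs with tapasin, had a ratio of 2.35, P4hb 3.29, the glucosidase subunit Prkcsh 2.30 and Canx 1.48. Tapbpl, the tapasin-related peptide editor, was at 46.0 and 39.2 TPM with a ratio of 0.76, below the call.

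Of the 11 other subunits of the 20S core 5 were called higher, with a median of 0.90, led by Psmb2 at 1.44, Psmb4 at 1.38, Psma5 at 1.18 and Psmb1 at 1.17. On the TPM scale their sum was 1599 (naive) and 1613 (plasma). The 10 activators and assembly factors had a median of 0.21, and 2 were called higher, Psme2 at 1.12 and Pomp, which assembles the core, at 1.09, and 1 lower, the pseudogene Psme2b-ps at -1.83. Psme4 was at 0.71. Psme1 and Psme2 encode the subunits of the interferon-inducible PA28 activator, and their ratio went from 2.21 to 1.16 (670 and 386 TPM of Psme1, 303 and 333 TPM of Psme2). Reads of Psme2 and its pseudogene may be split between them.

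Cytosolic and other peptidases, which trim or destroy peptides, went both ways, with 4 of 8 called higher and 1 lower (median 0.67). Lap3, the leucine aminopeptidase, was at 1.68, the insulin-degrading enzyme Ide at 1.50 and Thop1 at 1.24. Lnpep, which trims peptides in endosomes, was at 70.9 and 7.57 TPM, a ratio of -2.08. Without centring the medians were -0.08 for the other 20S subunits, -0.78 for activators and assembly and -0.32 for peptidases, so the direction of these lists depends on the scale.

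Of the other class I genes with at least 5 TPM, 4 of 15 had a centred ratio above 0. Of 27 listed, 23 were in the table and among those 15, 1 was called higher, H2-Q7, and 4 lower (median -0.46). The lower ones were Fcgrt, the IgG transport receptor, at -4.12 (36.5 and 0.0897 TPM), Hfe at -1.67, the lipid-presenting Cd1d1 at -1.41, and H2-Q10 at -1.04. Fcgrt, Hfe and Cd1d1 do not load peptides from this pathway. Without centring the median of this list was -1.45, with 0 called higher and 11 lower. Of all 10191 genes tested, 790 were called higher and 5870 lower on that scale. From counts with TMM factors the list median was 0.002, with 3 higher and 3 lower, against 2240 and 1704 of all genes.

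Among regulators of the pathway the class II transactivator and an X box factor stood lowest. Of 22 regulators 3 were called higher and 4 lower (median -0.56), against 2 and 15 without centring (median -1.54). Of all 10191 genes tested, 790 were called higher and 5870 lower without centring. Nlrc5, the class I transactivator, was at 61.8 and 35.5 TPM with a ratio of 0.20, while Ciita, its class II counterpart, was at 220 and 11.5 TPM with a ratio of -3.15. Nlrc5 thus went from 0.282 to 3.08 times Ciita within the libraries. Rfx5, which binds the X box in both classes, was called lower, with a ratio of -1.96 from 85.1 naive TPM. The interferon regulatory factors Irf1 and Irf2 were at -0.73 and -0.71, neither of them called, while Irf3 was called lower at -1.33 and Irf7 higher at 1.18 (43.1 and 49.5 TPM). The repressor Prdm1 was higher by 7.23 and the methyltransferase Ezh2 by 2.46. Regulators act on many genes, and their part in the class I levels was not tested.

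Of 8 interferon receptor and kinase genes with at least 5 TPM 4 were called lower and 1 higher (median -0.85). Ifngr1 was at 86.2 and 7.45 TPM (-2.38), Jak1 at 252 and 41.5 TPM (-1.59) and Ifngr2 at -1.19, while the feedback inhibitor Socs3 was at 8.80 and 34.7 TPM (2.85). In the list of class I turnover 4 of 6 were called lower and none higher (median -1.14). B3gnt5, an enzyme of glycolipid synthesis, was at 171 and 1.23 TPM (-5.28) and the ubiquitin ligase gene March1, which acts mainly on class II, at 151 and 1.14 TPM (-5.16). The table's 4933426M11Rik, the older symbol of Susd6, was at -1.25 and its partner Tmem127 at -1.03. Counts with TMM factors gave 2 called lower in each of these 2 lists, against 1704 of all 10191 genes. No centring gave 5 lower among receptors and kinases and 6 in turnover, against 5870 of all genes.

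H2-K1 and H2-D1 parted from the class II genes between the libraries, while the other class I genes had a median of -0.46. Of 11 class II genes 8 were called lower and none higher (median -2.04). The lowest were H2-Oa at -4.03, H2-DMb2 at -2.74, H2-DMb1 at -2.53 and H2-Ob at -2.38. The 3 that lay between were H2-Ab1 at -0.99, Cd74 at -0.81 and Ctss at -0.15. H2-K1 and H2-D1 together went from 0.309 to 1.39 times the sum of H2-Aa, H2-Ab1 and H2-Eb1, a log2 difference of 2.17 (counting interval 2.15 to 2.18).

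The genes whose pair of levels lay nearest to B2m, by distance in log2(TPM + 1) over the 2 libraries, were Gm10076 (0.038), Rpl10-ps3 (0.107) and Rpl32 (0.349). Nearest to H2-K1 were Ubb (0.063) and Rps28 (0.108). With 2 libraries such nearness says only that the levels were alike.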

How the data were processed

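RNA was measured in 1 library per cell type. The other samples (ATAC-seq, contact maps, ChIP-seq) were not used here. The submitters' processing notes name kallisto and the build mm9, but neither its version nor its annotation release (not given in the sources used here). Per the labels' protocols the library kit marked strand. Per the file headers, the deposited tables give for each transcript an estimated count and a TPM that the authors computed with kallisto. Effective length was the length minus 49 bases for 99.8% of transcripts. Here both were summed per symbol, which joined identifiers for 159 symbols, and estimated counts were rounded for scaling factors and intervals (Clopper-Pearson, 95%). With 1 library per group no test was run. Fold changes are on the log2(TPM + 1) scale. The added 1 pulls the ratio of low genes toward 0 before centring and toward 0.99 after it. Under 5 TPM the sign of a centred ratio can therefore differ from that of the counts. The differences of within-library ratios have intervals by the delta method. Scripts were tested on simulated data.

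The members, lists, motifs and named genes were chosen with earlier results of these data known. Of 166 list entries 160 were matched. Named were the 10 genes, 15 set genes, the 4 largest absolute ratios with at least 5 TPM in each of 10 lists that are not marker lists, the 3 nearest genes and leading markers. Single values of some of these are not reported here. H2-Q10, other class I genes, Irf3, Irf7 and the spacing of X2 and Y were singled out after values were seen. Shared and antisense windows of 50 bases were read from GENCODE M21 transcripts (GRCm38), whose transcripts differ from those in the deposited tables. TMM came from edgeR 4.0.16 and size factors from DESeq2 1.42.0, with Python 3.11.15 and R 4.3.3. Of 13 alternatives 1, complete transcripts only, was added after seeing the data. No coordinates were converted between builds, so accessibility peaks were not placed at these genes.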

Additional observations from a re-analysis of the deposited data

How the results depend on the processing

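Calls changed with the scale and with the unit. Against 3 genes called higher and 0 lower with a median of 0.64, no centring gave 0 higher, 1 lower and a median of -0.35. Centring on the 11 other 20S subunits gave 0, 1 and -0.26. Most of all 10191 genes tested were called lower in these settings, 5870 without centring and 5565 with the 20S centre. Settings on estimated counts change both the unit and the scale: TMM factors gave 5 higher with a median of 1.19 and size factors 6 with 1.22. Among all 10191 genes these factors gave 2240 and 2379 higher. Centring the counts on their median already puts H2-D1 (1.06) and Psmb9 (1.14) past the call. Complete transcripts gave 5 with 0.84, against 1337 higher of the 9066 genes tested there. The median was 0.68 with a pseudocount of 0.1 TPM, 0.50 with 5 TPM and 0.76 without immunoglobulin and mitochondrial genes. From estimated counts, the log2 differences were 0.13 for Psmb9 over Psmb6, -0.42 for both heavy chains over B2m, -0.35 for H2-K1 over B2m, -0.51 for H2-D1 over B2m and 0.16 for H2-K1 over H2-D1. From complete transcripts they were 0.34, -0.41 for both heavy chains, -0.42 for H2-D1 and 0.015 for H2-K1 over H2-D1, and with all class I genes -0.86 over B2m. The cause was not tested.

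Over all 10191 genes tested, 1628 were higher and 2242 lower (42.1% of calls higher). No centring gave 790 and 5870 (11.9%), and the 20S centre 829 and 5565 (13.0%). TMM gave 2240 and 1704 (56.8%) and size factors 2379 and 1845 (56.3%). A pseudocount of 5 TPM gave 1382 and 1234 (52.8%). No TPM filter gave 3671 and 2367 (60.8%) among 26434 genes. That setting takes in genes near 0 TPM in both libraries, whose centred ratio lies near 0.99. Its median over all genes was 0.86, against -0.23 with the filter. No paired analysis was possible because each cell type had 1 library, and leaving out a library leaves no comparison. Counting intervals of the 10 genes were narrow, and the spread between replicates is not known.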
